A study of Mus musculus with 98 samples.

Results

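The mesothelium of the mouse thymus was described from the cells that the deposited annotation calls Mes in the wild-type age series. These were 481 of the 36208 annotated nonepithelial thymic stroma (NETS) cells, which fell into 19 subtypes. The age series comprised 8 droplet single-cell RNA-seq libraries of wild-type thymic stroma, 1 each from E12.5 and E13.5 (days of embryonic development) and 2 each from E16.5, the day of birth (P0) and 4 weeks of age (W4). All were made from live cells sorted as Ter119-CD45-EpCAM-, so a mesothelial cell carrying EpCAM on its surface would have been outside the gate. Further values came from newborn (P0) stroma sorted as Ter119-CD45- and fixed before sequencing, with 3 libraries from Tbx1+/- Crkl+/- pups and 3 from wild-type pups, and from bulk RNA-seq of wild-type gp38+CD26+ and gp38+CD26- stroma sorted at P0 and at 4 weeks, with 6 libraries per population and age.

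The mesothelium is the single sheet of flattened cells that lines the body cavities and covers the organs within them. It arises from mesoderm but carries keratins, junctions and an apical surface like an epithelium, and it secretes lubricants, fibrinolytic factors and complement. In embryos, mesothelial cells marked by the transcription factor Wt1 are known in several organs to detach and give rise to fibroblasts and smooth muscle. The gp38 antigen is the product of Pdpn, and CD26 is the product of Dpp4.

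The promoter sequences of 4 genes that led the mesothelium by level are shown because their control regions can be read beside the expression values that follow. Each is the 250 bases before the RefSeq transcription start in the mouse assembly GRCm38.p6, written 5′ to 3′ on the strand of the gene. Capitals mark matches on either strand to GGAATG, the core of TEAD sites, and to GTGGGNG, a core of WT1 sites. The windows lie at chr5:136038246-136038495 (plus strand) for Upk3b, chr2:132880863-132881112 (minus strand) for Lrrn4, chr15:101412153-101412402 (plus strand) for Krt7 and chr9:18674604-18674853 (minus strand) for Muc16.
Upk3b: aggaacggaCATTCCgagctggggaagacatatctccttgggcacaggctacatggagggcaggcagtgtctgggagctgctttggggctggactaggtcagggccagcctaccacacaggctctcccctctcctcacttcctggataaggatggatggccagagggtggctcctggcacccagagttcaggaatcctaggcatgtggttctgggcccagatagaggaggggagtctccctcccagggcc
Lrrn4: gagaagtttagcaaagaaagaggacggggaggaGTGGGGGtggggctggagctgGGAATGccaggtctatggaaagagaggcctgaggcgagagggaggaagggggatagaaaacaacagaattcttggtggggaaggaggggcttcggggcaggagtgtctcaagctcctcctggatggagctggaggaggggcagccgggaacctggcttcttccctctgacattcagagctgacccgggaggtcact
Krt7: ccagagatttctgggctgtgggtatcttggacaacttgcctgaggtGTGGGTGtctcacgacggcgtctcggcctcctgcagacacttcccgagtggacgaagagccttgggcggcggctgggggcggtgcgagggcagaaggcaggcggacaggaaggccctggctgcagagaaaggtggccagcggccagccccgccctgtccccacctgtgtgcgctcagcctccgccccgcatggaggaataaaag
Muc16: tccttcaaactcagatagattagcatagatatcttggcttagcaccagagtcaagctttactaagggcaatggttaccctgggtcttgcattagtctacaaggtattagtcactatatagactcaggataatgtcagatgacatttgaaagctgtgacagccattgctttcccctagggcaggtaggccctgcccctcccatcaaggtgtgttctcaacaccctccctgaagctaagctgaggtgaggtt
Upk3b held 1 match to the TEAD core, Lrrn4 held 1 match to each core, Krt7 held 1 match to the WT1 core, and Muc16 held none. Of the 50 genes that led the mesothelium, 38 had an entry in the promoter table. The TEAD core stood in the windows of 9 of these genes (23.7%) and the WT1 core in those of 16 (42.1%), against 14.4% and 30.8% of all 27025 genes with an entry. The third pattern, AGATAA, a core of GATA sites, stood in 3 of the 38 genes (7.89%) and in 11.4% of all genes. Counted over single windows, 12.6%, 28.1% and 9.99% of 32851 promoters held the TEAD, WT1 and GATA cores. A match shows only that these letters occur in the window.

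The mesothelial cells were spread unevenly over the libraries. There were 20 at E12.5, 30 at E13.5, 2 and 5 in the E16.5 replicates, 228 and 7 in the P0 replicates and 32 and 157 in the W4 replicates. Unique molecular identifiers (UMIs, 1 per captured transcript) were summed over the mesothelial cells of each library, which gave 27563 to 3189730 UMIs per library. The E16.5 replicate with 2 cells was left out, as at least 5 cells were required, so 7 libraries were used and E16.5 rested on 5 cells. Levels are UMIs scaled to a sum of 1000000 (CPM), and each list of 7 values below runs in the order E12.5, E13.5, E16.5, P0 replicates 1 and 2, and W4 replicates 1 and 2. The median mesothelial cell held 13552 UMIs, against 12909 in capsular fibroblasts of subtype CapFb3, the subtype used for comparison, of which there were 1226 cells. Of 36053 cell barcodes, 0.430% occurred in more than 1 library, and these included 3 mesothelial cells. E12.5 and E13.5 had a single library each, so that age and library cannot be told apart there, and the labels do not say whether the paired libraries came from separate animals. The study describes thymi pooled over litters at E12.5 and E13.5 and a pair of thymi at each later age.

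Signs of other cells and of handling differed between libraries. Immediate-early genes (12 genes such as Fos, Jun and Egr1, which respond within minutes to stimulation and to tissue dissociation) summed to 1678 and 2126 CPM in the mesothelium at E12.5 and E13.5 and to 15356 to 22652 CPM from E16.5 on, while over all cells of a library they ran from 4594 to 21254 CPM. The 10 haematopoietic markers summed to 373 CPM in the mesothelium of W4 replicate 1 and to 0 to 48.6 CPM in the others. Erythroid genes reached 1584 CPM in W4 replicate 2 and 2.94 to 321 CPM elsewhere. Markers of thymic epithelium summed to 12.7 to 136.005 CPM, of endothelium to 35.6 to 263 CPM and of neural crest cells to 0 to 10.97 CPM. In W4 replicate 1, where both the epithelial and the endothelial sum peaked, Krt14, itself among the leading genes of mesothelium, gave 114 CPM of the epithelial sum and Kdr gave 243 CPM of the endothelial sum.

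The name was checked against 4 markers that define mesothelium. Upk3b, which encodes a uroplakin of the apical membrane, was detected in 472 of 481 mesothelial cells (98.1%) against 1.14% of CapFb3 cells. Krt19, a keratin of simple epithelia, was found in 97.3% and 1.63%, and Msln, which encodes the surface protein mesothelin, in 71.1% and 0.408%. Wt1 was the least restricted, with 94.2% of mesothelial and 59.6% of CapFb3 cells. With every cell thinned to 2000 UMIs, the shares were 88.4% and 0.326% for Upk3b, 82.3% and 0.163% for Krt19, 49.7% and 0.0816% for Msln and 48.9% and 20.9% for Wt1. In thinned cells, 94 mesothelial cells held all 4 markers and 7 held none, whereas no CapFb3 cell held 3 or more. All 4 markers thus stood with the name. Since the subtypes were made by clustering the same counts, these shares are a description and carry no test.

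Msln was scarce in early mesothelium. Its level was 0, 20.3, 432, 920.5, 1011, 1169 and 636 CPM. No Msln UMI was found in any of the 20 cells at E12.5 (exact 95% interval of the share of cells with a UMI up to 16.8%, counting error only, which does not limit the share of cells that express it), and 4 of 30 cells held one at E13.5, against 188 of 228 in P0 replicate 1 and 111 of 157 in W4 replicate 2. Upk3b was already at 1028 and 1222 CPM at E12.5 and E13.5, and was 1600.3 to 1870.1 CPM later, and CapFb3 held 0 to 3.15 CPM. Krt19 stood at 194, 465, 1460.1, 1547, 1251, 2207 and 2086 CPM and in CapFb3 at 0 to 3.44 CPM. In every library Upk3b and Krt19 were higher in mesothelium than in any other subtype.

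The 50 genes that stood highest above every other subtype were ordered by the mean log2 ratio over the 7 libraries with 10 CPM added. After Upk3b (mean 1562 CPM) and Krt19 (1316 CPM) came Upk1b, a second uroplakin (366 CPM), Lrrn4, a membrane protein of mesothelium (344 CPM), Lgals7, a galectin of stratified epithelia (819 CPM), Msln (598 CPM) and Krt7 (258 CPM). The membrane-bound transcription factor Myrf (209 CPM), the junction protein Cxadr (190 CPM) and the zinc finger protein Bnc1 (79.5 CPM) also led. The proliferating subtype Pr was next highest for 17 of the 50 genes, CapFb3 for 8 and CapFb4 for 6, and Upk3b reached 46.8 CPM in Pr. Gpm6a, which encodes a membrane glycoprotein, averaged 339 CPM and was next highest in the endothelial subtype EnVL at 29.0 CPM.

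Among CapFb3 genes that mesothelium lacked was Gsc, the homeobox gene goosecoid, at 69.2 to 117 CPM in CapFb3 and 0 to 1.57 CPM in mesothelium. Pdgfra, the receptor that marks fibroblasts, was found in 17.9% of mesothelial and 79.9% of CapFb3 cells. All 16 genes of a fibroblast list had a lower mean in mesothelium than in CapFb3, and all 12 genes of a mesothelial surface list and 15 of 15 keratin and junction genes had a higher one. The median thinned mesothelial cell held 17 UMIs of these 27 surface and keratin genes, and the median CapFb3 cell held 0. Dcn, which encodes the collagen-binding proteoglycan decorin, was found in 99.4% of mesothelial cells, against 92.3% of CapFb3, 98.4% of CapFb4 and 97.2% of MedFb1b fibroblasts, 71.7% of pericytes (Pc) and 47.9% of the endothelial subtype EnC. With cells thinned to 2000 UMIs, these shares were 96.9%, 88.8%, 97.5%, 94.2%, 38.5% and 19.7%, and free RNA can add to each of them. Over 12614 genes, the profile most like mesothelium was CapFb2b in 5 of 7 libraries (Pearson r = 0.921 across genes at E12.5), CapFb2a at E16.5 (r = 0.821) and CapFb3 in P0 replicate 1 (r = 0.897). Genes are not independent replicates, and both profiles came from 1 library, so these are descriptions.

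**Figure D1:**
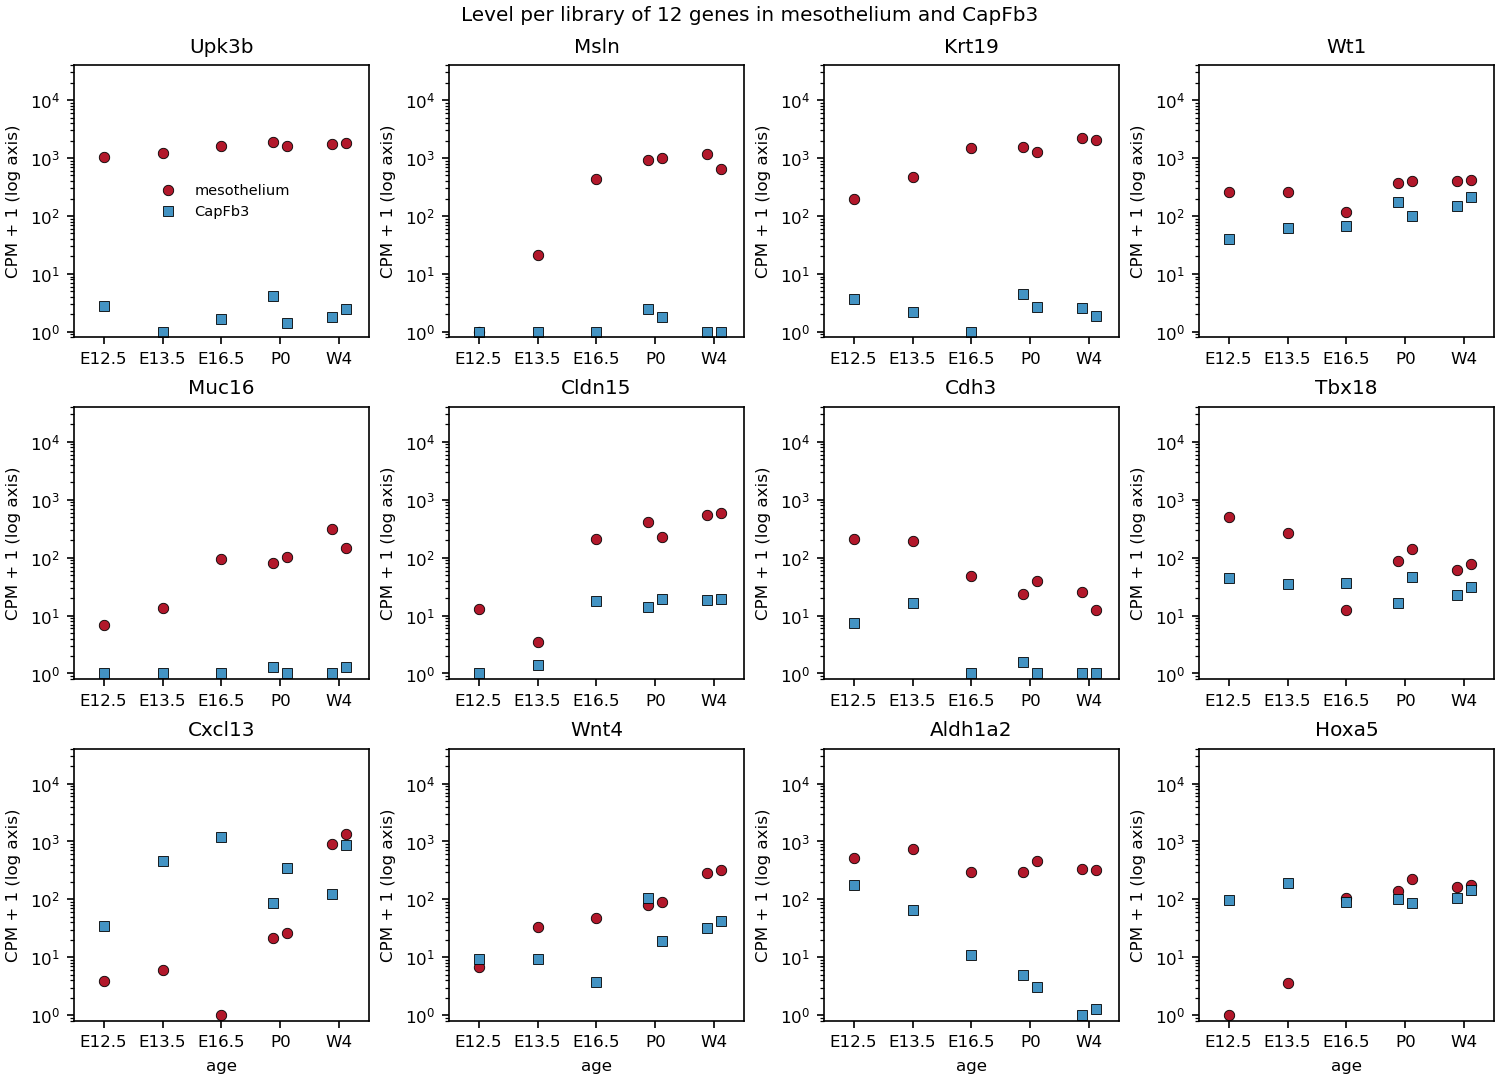
CPM plus 1 (log axis) of 12 genes against age, with mesothelium as red circles and CapFb3 as blue squares and 1 point for each of the 7 libraries; a square covers a circle at the same level. At E12.5 and E13.5 Msln lies at 0 and 20.3 CPM, and from E16.5 on it lies at 432 CPM or more, and Hoxa5 lies below CapFb3 at E12.5 and E13.5 and above it in each later library.

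The change from early to late mesothelium was tested as the mean of the 4 P0 and W4 libraries minus the mean of E12.5 and E13.5, a contrast chosen after the values had been seen. With 1 library each, E12.5 and E13.5 gave no spread, so its p-values rest on the spread within P0 and W4 and over genes. Most surface genes rose. Here and below, a rise or fall compares cells named Mes at different ages, and whether these came from the same site was not tested. Of 7960 genes tested, 32.4% passed an adjusted p of 0.05 (edgeR quasi-likelihood test), 20.4% higher and 12.0% lower, and 11 of the 12 surface genes rose and none fell, with a median log2 fold change of 2.16 against 0.04 over all genes. Msln had a log2 fold change (± SE, here and below) of 9.19 ± 0.51, adjusted p = 3.38e-12. The SE was taken as the absolute log2 fold change over the square root of the F statistic. As Msln had no UMI at E12.5, the counts do not fix the size of its log2 fold change or SE. The same holds below wherever an age was at 0 CPM. Muc16, the large mucin that binds mesothelin, went from 5.89 and 12.7 CPM to 79.3 to 316 CPM (log2 fold change 4.09 ± 0.47, adjusted p = 2.75e-07). Gpm6a, Lrrn4 and Upk1b rose by 2.95 ± 0.25, 2.41 ± 0.23 and 2.17 ± 0.22 on the log2 scale. Upk3b rose by less (log2 fold change 0.82 ± 0.19, adjusted p = 0.00171). Bcam, which encodes a laminin receptor, was the surface gene that did not pass, at 103.1, 134.6, 164, 130.4, 101.1, 171 and 74.1 CPM. In CapFb3, 5 of the surface genes could be tested, and 2 rose and 1 fell against 36.2% of 12385 genes called in either direction (2471 rose and 2013 fell). Without the E12.5 library the calls of Upk3b, Dpp4, Dsp and Wt1 were lost, and 1649 genes were called in place of 2581.

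Pdpn and Dpp4, whose products define the sorting gates of this tissue, were both present in mesothelium. Pdpn stood at 85.4, 96.5, 304, 219, 240.1, 226 and 221 CPM and rose (log2 fold change 1.46 ± 0.22, adjusted p = 1.48e-05). Dpp4 stood at 17.7, 55.9, 35.0, 79.004, 114, 131.6 and 102.97 CPM and rose (log2 fold change 1.80 ± 0.32, adjusted p = 0.000105). In CapFb3 their levels were 42.8 to 120.2 and 0 to 66.5 CPM. Late mesothelium therefore carried transcripts of both antigens of the gp38+CD26+ gate.

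Of 13 keratin and junction genes tested, 5 rose and 3 fell, against 20.4% and 12.0% of all genes. The median log2 fold change was 0.63, and the sum of the list went from 1584 and 1763 CPM to 2768 to 4508 CPM at P0 and W4. Cldn15, a claudin of leaky epithelia, went from 11.8 and 2.54 CPM to 227 to 583 CPM (log2 fold change 6.48 ± 0.42, adjusted p = 3.2e-11). Krt19 rose (log2 fold change 2.69 ± 0.22, adjusted p = 1.36e-09), as did Krt8 (1.76 ± 0.28). Those that fell were the neural cadherin Cdh2, the placental cadherin Cdh3 and the desmosome protein desmoplakin, Dsp. Cdh3 fell from 212 and 193 CPM to 11.6 to 37.9 CPM (log2 fold change -3.24 ± 0.26, adjusted p = 1.12e-09), with no overlap. Cdh2 fell from 167.8 and 147 CPM to 2.19 to 14.1 CPM (log2 fold change -3.77 ± 0.30, adjusted p = 8.23e-10). Cdh1, the epithelial cadherin, stayed between 0 and 25.3 CPM at every age and was not tested. In early CapFb3 Cdh2 was at 160.4 and 92.6 CPM, close to mesothelium at E12.5 and lower at E13.5, whereas Cdh3 was at 6.38 and 15.6 CPM there.

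Several transcription factors of early mesothelium were lower late, and Hoxa5, which CapFb3 held at every age, was higher. Of 15 tested, 4 rose and 5 fell (median -0.28), against 20.4% of all genes that rose and 12.0% that fell, so the share that rose was near that of all genes. Tbx18, a T-box factor of the epicardium and other coelomic linings, went from 504 and 267 CPM to 61.4 to 139.02 CPM (log2 fold change -1.998 ± 0.20, adjusted p = 4.13e-08). Gata4, a zinc finger factor of the same linings, fell from 103.1 and 102 CPM to 6.58 to 19.1 CPM (-2.74 ± 0.30, adjusted p = 1.82e-07). Tcf21, which marks epicardial precursors of fibroblasts, fell from 162 and 40.6 CPM to 0 to 19.8 CPM (-3.86 ± 0.46, adjusted p = 5.43e-07). Gata6 did not pass, at 339, 345, 421, 318, 164, 408 and 389 CPM. The mesothelial factor Bnc1 was at 106, 106.7, 23.4, 56.4, 114, 83.4 and 67.1 CPM and did not pass either. Wt1 rose slightly (log2 fold change 0.77 ± 0.19, adjusted p = 0.00301), from 259 and 259 to 377 to 410.0 CPM. Osr1, an odd-skipped factor of lateral mesoderm, rose from 85.4 and 40.6 to 189.6 to 475 CPM (2.92 ± 0.31, adjusted p = 7.69e-08).

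Hoxa5 was nearly absent from early mesothelium. Its level was 0, 2.54, 105, 136.7, 227, 160.1 and 177 CPM in mesothelium and 97.5, 190.0, 89.3, 100.5, 86.1, 105 and 144.2 CPM in CapFb3, so mesothelium was lower at E12.5 and E13.5 and higher in each of the 5 later libraries. A single Hoxa5 UMI was counted at E12.5 and E13.5 together among 733340, against 907 of 5870998 at P0 and W4, a ratio of 113.3 with a counting interval of 20.3 to 4479.7. The test of the difference in change between mesothelium and CapFb3 gave an adjusted p of 5.36e-23. Hoxb5, its neighbour in function, was at 8.83 and 2.54 CPM early and 0 CPM from E16.5 on, and at 10.4 to 30.1 CPM in CapFb3.

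Heart-muscle genes stood in early mesothelium and were looked up after their values had been seen. Tnnt2, cardiac troponin T, was at 218 and 254 CPM at E12.5 and E13.5, in 15 of 20 and 20 of 30 cells, and at 0 to 6.27 CPM later. The other cells of those libraries held 1.65 and 1.54 CPM. Tnni1, slow skeletal troponin I, was at 754 and 510.5 CPM in 20 of 20 and 28 of 30 cells, against 37.9 and 8.31 CPM in other cells. Myl7, the atrial myosin light chain, was at 262, 76.2, 46.7, 42.01, 12.6, 87.7 and 27.0 CPM, and so was still present at W4. Other genes of heart muscle were close to 0, with 4 UMIs of Actc1, 1 of Myh6 and none of Myh7, Ttn, Actn2, Nppa or Nkx2-5 in the early mesothelium. Apela, which encodes a peptide hormone of the apelin receptor, fell with the troponins, from 327 and 185.4 CPM to 0 to 12.6 CPM (log2 fold change -7.95 ± 0.39, adjusted p = 1.62e-12).

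Growth factors changed in both directions over the same interval. Of 28 ligands and secreted modulators tested, 16 rose and 6 fell (median log2 fold change 1.23), against 20.4% and 12.0% of all genes. Some of them pass the filter on low counts only through the late libraries. Without that filter 15 of 35 rose and 6 fell, against 1644 and 1435 of all 16715 genes. The heparin-binding factors pleiotrophin and midkine were the most abundant ligands early. Ptn fell from 4744 and 6497 CPM to 128 to 547 CPM (log2 fold change -4.22 ± 0.23, adjusted p = 2.08e-12). Mdk fell from 3012 and 3474 CPM to 131.6 to 809 CPM (-2.99 ± 0.19, adjusted p = 3.48e-11). Fgf1, a fibroblast growth factor without a signal peptide, rose from 11.8 and 17.8 CPM to 154.9 to 428 CPM (4.15 ± 0.36, adjusted p = 4.08e-09) and was 0 to 7.26 CPM in CapFb3. Rarres2, which encodes the chemoattractant chemerin, rose from 76.6 and 167.6 CPM to 1669.9 to 2414 CPM (4.38 ± 0.25, adjusted p = 3.75e-12). Gas6, the ligand of the TAM receptors, rose from 20.6 and 17.8 CPM to 363 to 607 CPM (4.81 ± 0.31, adjusted p = 3.7e-11). The alarmin Il33 rose (4.70 ± 0.35, adjusted p = 3.02e-10), as did the Wnt ligand Wnt4 (3.65 ± 0.35, adjusted p = 1.93e-08).

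Rspo1, an R-spondin that amplifies Wnt signals, was a mesothelial ligand from the start. It was at 268, 211, 327, 445, 632, 359.8 and 451 CPM and in CapFb3 at 11.8, 3.11, 42.98, 68.7, 54.9, 138.7 and 177 CPM, so mesothelium was higher in every library and by the largest ratios at E12.5 and E13.5. It rose in mesothelium (log2 fold change 1.10 ± 0.21, adjusted p = 0.000246) and by more in CapFb3, with a log2 difference of -3.31 ± 0.38, adjusted p = 2.13e-15. Bmp7, a bone morphogenetic protein, was counted with 2 UMIs early and at 23.8 to 63.2 CPM at P0 and W4, a ratio of 13.1 with a counting interval of 3.59 to 109. Fgf7 and Fgf10, ligands of the epithelial receptor that thymic epithelium needs, were at 0 to 11.7 and 0 to 10.2 CPM, whereas CapFb3 reached 77.4 and 109 CPM.

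Aldh1a2, which encodes the main retinoic acid-forming enzyme of the embryo, separated mesothelium from CapFb3 with age. Its level was 521, 726, 292, 301, 455, 336 and 315 CPM in mesothelium and 176, 63.5, 10.1, 4.01, 2.08, 0 and 0.299 CPM in CapFb3. Mesothelium held 292 CPM or more in every library while CapFb3 went to 0 and 0.299 CPM at W4, and the log2 difference in change was 5.67 ± 0.43, adjusted p = 2.72e-36. The change within mesothelium itself (log2 fold change -0.72 ± 0.18, adjusted p = 0.0033) was lost without the E13.5 library or without P0 replicate 1. Crabp1, a cytoplasmic carrier of retinoic acid, fell from 171 and 35.6 CPM to 0 to 1.88 CPM (-7.10 ± 0.67, adjusted p = 2.23e-08). Aldh1a1, a second enzyme of the same step, was at 0 in both early libraries and at 25.3 to 145 CPM at P0 and W4, at least 19.3-fold higher against a floor of 3 counts over the early libraries (4.09 CPM). Of 10 retinoid genes tested, 4 rose and 3 fell, against 20.4% and 12.0% of all genes.

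Many complement, fibrinolysis and surface defence genes rose. Of 16 tested, of 21 listed, 13 were higher and none was lower, against 20.4% and 12.0% of all genes. Without the filter on low counts, 13 of 20 were higher and 1 was lower, against 9.84% of all genes higher. The sum of the list in CapFb3 rose too, from 258 and 349 CPM early to 6041 and 6295 CPM at W4. In mesothelium it went from 536 and 386 CPM to 7252 and 7485 CPM at W4. C3, the central complement component, had 1 UMI early and was at 1790.1 to 3929 CPM at P0 and W4, a ratio of 2006 with a counting interval of 359.9 to 79219. At E16.5 it was at 128 CPM. Serping1, the inhibitor of C1, rose from 164.9 and 124.4 CPM to 708 to 1552 CPM (log2 fold change 3.05 ± 0.22, adjusted p = 2.13e-10). Thbd, the anticoagulant receptor thrombomodulin, was at 0, 5.08, 199, 223, 265, 241 and 270.2 CPM. It had 2 UMIs early, and the ratio was 88.8 with a counting interval of 24.5 to 734. The hyaluronan synthase Has1 was at 0 early and 32.9 to 183.6 CPM at P0 and W4, at least 26.9-fold higher. The median log2 fold change of the list was 3.96 with genes at 0 early set to that bound.

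Transcripts of antigen presentation were scarce early and rose. All 20 genes of the MHC and interferon list were tested and all rose, with a median log2 fold change of 4.47 with genes at 0 set to their bound. Some of them pass the filter on low counts only through the late libraries, and without that filter all 20 also rose, against 9.84% of all genes. In CapFb3, 19 rose, beside 2471 of all 12385 genes tested. H2-K1, a classical class I gene, went from 5.89 and 17.8 CPM to 346 to 1739.5 CPM (log2 fold change 6.30 ± 0.34, adjusted p = 2.52e-12). B2m, the light chain of class I, rose (2.76 ± 0.24, adjusted p = 3.17e-09), and Tapbp, the loading chaperone tapasin, rose (4.57 ± 0.33, adjusted p = 1.49e-10). Class II transcripts were found too. Cd74, the invariant chain, was at 0, 0, 0, 238, 569, 259 and 247 CPM, at least 80.2-fold higher late than early, and in CapFb3 at 0 to 29.0 CPM. It was found in 40.7% of mesothelial and 9.46% of CapFb3 cells, and in 18.7% and 0.979% after thinning. H2-Aa, a class II alpha chain, was at 0, 0, 0, 65.5, 126, 85.6 and 82.5 CPM. The haematopoietic marker sums were 48.6 and 0 CPM in the P0 libraries and 373 and 47.1 CPM in the W4 libraries, and the 0 came from 7 cells, in which 3 counts would be 37.9 CPM. Their part in the class II levels was not tested.

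Matrix genes rose and imprinted and fetal growth genes fell. Of 25 matrix genes tested, 17 rose and none fell (median 1.18), against 20.4% and 12.0% of all genes. Without the filter on low counts, 14 of 26 rose and none fell, against 9.84% of all genes that rose. In CapFb3, where 2471 of all 12385 genes tested rose and 2013 fell, 20 rose and none fell (median 2.46). Dcn rose from 686 and 1316 CPM to 4588 to 10956 CPM (log2 fold change 3.03 ± 0.24, adjusted p = 8.41e-10). Fn1, fibronectin, rose (2.11 ± 0.22, adjusted p = 8.16e-08), Eln, elastin, rose (3.67 ± 0.24, adjusted p = 3.21e-11), and Timp2, an inhibitor of metalloproteinases, rose (3.30 ± 0.22, adjusted p = 5.62e-11). All 14 fetal growth genes tested fell, with a median of -2.86, against 12.0% of all genes, and in CapFb3 12 of 15 fell. H19, the imprinted noncoding RNA, went from 2597 and 3015 CPM to 473 and 164 CPM at P0 and 2.19 and 4.19 CPM at W4 (log2 fold change -5.98 ± 0.28, adjusted p = 4.92e-13). Peg3, a paternally expressed zinc finger gene, fell (-3.75 ± 0.18, adjusted p = 4.95e-13), and so did the growth inhibitor Cdkn1c (-3.11 ± 0.19, adjusted p = 1.92e-11). All 12 immediate-early genes rose, against 20.4% of all genes in mesothelium, with a median of 4.03 in mesothelium and 2.55 in CapFb3. Their part in the other changes was not tested.

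**Figure D2:**
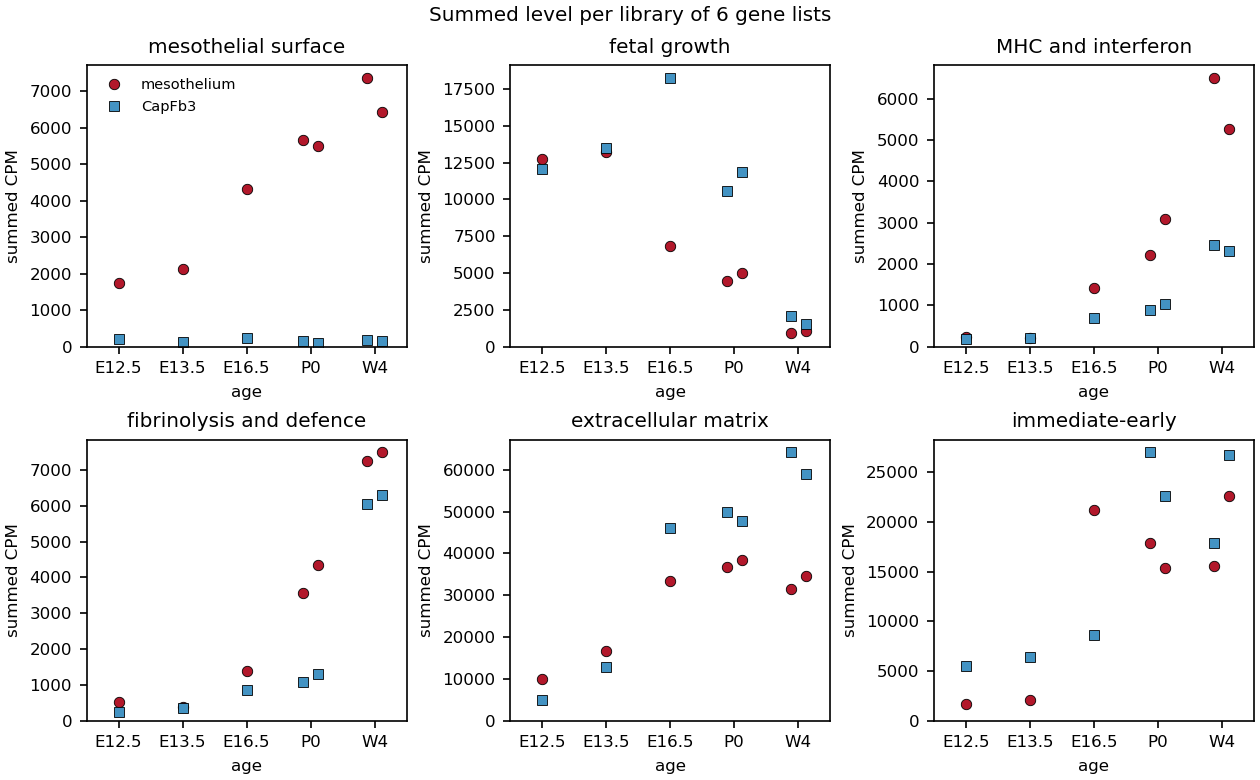
Summed CPM of 6 gene lists in mesothelium (red circles) and CapFb3 (blue squares) against age, with 1 point per library. The mesothelial surface list climbs from 1749 to 7344 CPM in mesothelium while CapFb3 stays between 108.1 and 224 CPM, and fetal growth genes are lowest at W4 in both.

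Mesothelium at E16.5 rested on 5 cells, and its contrasts resolved few genes. P0 against E16.5 called 0.389% of the genes tested (0.251% higher and 0.138% lower), and W4 against E16.5 called 2.65% (1.97% higher and 0.678% lower). The count of 31 genes for P0 against E16.5 was not stable, at 84 without a filter on low counts, 20 without E12.5, 57 without P0 replicate 1, and 72 and 86 without W4 replicates 1 and 2. That of 211 for W4 against E16.5 was 93 with DESeq2 and 416 without P0 replicate 1. C3 was higher at P0 (log2 fold change 4.10 ± 0.42, adjusted p = 1.45e-05), Wt1 was higher at P0 (1.88 ± 0.42, adjusted p = 0.0479) and the imprinted gene Mest was lower (-2.92 ± 0.34, adjusted p = 5.6e-05). Mest was at 480.0, 259, 1262, 169, 37.9, 2.19 and 3.26 CPM. Msln, Upk3b and Krt19 were at 432, 1600.3 and 1460.1 CPM at E16.5, and none passed the test against P0.

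Between P0 and W4, 304 genes rose and 219 fell in mesothelium (6.57% of 7960, or 3.82% and 2.75%), on a contrast in which P0 replicate 2 had 7 cells. Among surface genes 2 of 12 rose and none fell. Muc16 rose from 79.3 and 101.1 CPM to 316 and 147 CPM (log2 fold change 1.43 ± 0.30, adjusted p = 0.0032) and Nkain4, a membrane protein that associates with the sodium pump, rose from 906 and 682 CPM to 1615 and 1749 CPM (1.08 ± 0.22, adjusted p = 0.00247). None of 13 keratin and junction genes and 1 of 15 transcription factors passed. The identity markers showed no call between these ages, with Msln at 920.5 and 1011 CPM and 1169 and 636 CPM.

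Cxcl13, the chemokine that attracts B cells through Cxcr5, made the largest rise among genes separated between the ages. It was at 2.94, 5.08, 0, 20.4, 25.3, 904 and 1326 CPM (log2 fold change 5.79 ± 0.33, adjusted p = 8.62e-11). The share of mesothelial cells with a UMI moved less, at 35 of 228 (15.4%) and 2 of 7 (28.6%) cells at P0 and 5 of 32 (15.6%) and 49 of 157 (31.2%) cells at W4, so the level in W4 replicate 1 came from 5 cells. Gatm, the first enzyme of creatine synthesis, rose from 3.76 and 0 CPM to 193 and 126 CPM (5.36 ± 0.40, adjusted p = 8.89e-09). Prg4, the lubricant lubricin, rose from 2.82 and 0 CPM to 65.8 and 65.7 CPM (4.55 ± 0.44, adjusted p = 3.75e-07). Slpi, a secreted protease inhibitor, rose from 69.9 and 50.6 CPM to 279 and 199 CPM (1.80 ± 0.25, adjusted p = 4.52e-05). Of 28 ligands, 5 rose and 4 fell, against 3.82% and 2.75% of all genes. Wnt4 went from 79.004 and 88.5 CPM to 289.6 and 325 CPM (1.98 ± 0.24, adjusted p = 6.81e-06). Mdk fell from 711 and 809 CPM to 131.6 and 211 CPM (-1.99 ± 0.25, adjusted p = 1.16e-05).

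Some defence and class I genes went on rising. Of 16 complement and fibrinolysis genes, 8 rose and none fell (median 0.89), against 3.82% and 2.75% of all genes. C4b rose from 74.3 and 88.5 CPM to 265 and 281 CPM (log2 fold change 1.88 ± 0.24, adjusted p = 1.31e-05). Of 20 MHC and interferon genes, 9 rose and 1 fell, with H2-K1 at 2.05 ± 0.22, adjusted p = 1.77e-06 and H2-D1 at 2.11 ± 0.24, adjusted p = 2.47e-06. The gene that fell was Irf1, an interferon-induced transcription factor (-0.93 ± 0.26, adjusted p = 0.0317). The class II genes H2-Aa, H2-Ab1, H2-Eb1 and Cd74 did not pass.

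Fetal growth genes went on falling, 10 of 14 with none rising, against 2.75% of all genes that fell and 3.82% that rose. Dlk1, a secreted inhibitor of differentiation, fell from 1027 and 1466 CPM to 70.2 and 52.2 CPM (log2 fold change -4.28 ± 0.26, adjusted p = 1.81e-10). H19 also fell (-6.54 ± 0.45, adjusted p = 2.15e-09). Igf2 was at 10.97 and 12.6 CPM and then 0 in both W4 libraries, at least 10.2-fold lower. Of 12 cell cycle genes, 5 fell and none rose, among them Stmn1, which encodes the microtubule regulator stathmin (-1.46 ± 0.22, adjusted p = 0.000136). Matrix genes divided, 5 rising and 3 falling, with Eln falling from 1661 and 1757 CPM to 568 and 552 CPM (-1.54 ± 0.20, adjusted p = 2e-05).

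Single libraries carried many of these calls, and the counts per list for this contrast were not recounted without them. The called genes of the lists, the leading genes and the largest changes were followed together. More of them lost their call without P0 replicate 1 than kept it, and a further 5 turned in direction. The counts per list given above for P0 to W4 therefore lean on that library. Without P0 replicate 1, which held 228 of the 235 P0 cells, 171 genes were called in place of 523, and among genes named here the calls of Muc16, Irf1, Igf2 and Eif2s3y were lost. Without P0 replicate 2 the call of Nkain4 was lost, without W4 replicate 1 that of Irf1, and without W4 replicate 2 those of Igf2 and Eif2s3y. The heat shock gene Hspa1b, which responds to handling as well as to stress, rose from 98.1 and 37.9 CPM to 562 and 579 CPM (2.68 ± 0.25, adjusted p = 2.85e-07). Eif2s3y, carried on the Y chromosome, rose from 1.25 and 0 CPM to 30.7 and 32.6 CPM (4.60 ± 0.72, adjusted p = 0.000152). In the other cells of the same libraries it was at 1.33 and 35.4 CPM at P0 and at 28.7 and 25.3 CPM at W4. Ddx3y, also on the Y chromosome, was at 0.627 and 50.6 CPM in mesothelium at P0 and at 43.9 and 56.4 CPM at W4. Eif2s3y was thus low in the other cells of P0 replicate 1 too, and not in those of P0 replicate 2. The sex of the animals is not in the labels, so age and sex cannot be told apart where P0 replicate 1 carries the value. At E13.5 both genes were at 0 CPM in mesothelium and in the other cells, and at E12.5 they were at 17.7 and 8.83 CPM in mesothelium. The contrast of early and late stages therefore has the same limit where the E13.5 library carries the value. Of 4 erythroid genes tested 3 rose as well, against 3.82% of all genes. The part of these in the other changes was not tested.

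The change from P0 to W4 differed between mesothelium and CapFb3 for 267 of 12595 genes (2.12%), with the subtype effect fitted within each library. In 97 of these (0.770% of all) the change was more positive in mesothelium, and in 1.35% it was more negative. No surface and no keratin or junction gene was among them. For Cxcl13 mesothelium rose while CapFb3 went from 85.3 and 341 to 121 and 858 CPM (log2 difference 3.85 ± 0.38, adjusted p = 4.68e-21). Wnt4 rose in mesothelium and in CapFb3 went from 104 and 18.3 to 31.4 and 41.2 CPM (3.05 ± 0.35, adjusted p = 3.53e-15). Ptn, already low in mesothelium at P0, went in CapFb3 from 4220.0 and 4202 to 282 and 116 CPM (3.11 ± 0.35, adjusted p = 2.15e-15). Fabp4, a fatty acid carrier, rose in mesothelium from 53.9 and 75.8 to 472 and 416 CPM and was at 153 and 477 and then 121.8 and 226 CPM in CapFb3 (3.01 ± 0.33, adjusted p = 5.58e-16).

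The matrix genes leaned the other way, with 9 of 25 more negative in mesothelium and none more positive, against 1.35% and 0.770% of all genes. Eln fell in mesothelium and went from 1473 and 327 to 2715 and 2282 CPM in CapFb3 (log2 difference -3.38 ± 0.32, adjusted p = 4.61e-22). C3 was already at 1790.1 and 2275 CPM in mesothelium at P0 and went in CapFb3 from 79.3 and 178 to 2920.0 and 3187 CPM (-3.79 ± 0.33, adjusted p = 3.66e-27). H2-K1 gave a log2 difference of -2.23 ± 0.34, adjusted p = 1.8e-08, with CapFb3 going from 14.0 and 46.2 to 412 and 429 CPM. Ccl11, eotaxin, was at 55.5 and 0 and 26.3 and 25.6 CPM in mesothelium and at 61.3 and 173.4 and 374 and 382 CPM in CapFb3 (-3.39 ± 0.39, adjusted p = 3.53e-15). Without P0 replicate 1 the calls of Ccl11, H2-K1 and Wnt4 were lost, the log2 difference of Ccl11 turned to 6.85, and the number of genes called was 56.6% of that with all libraries, and without either W4 library 89 were called. With 5 mesothelial cells drawn from each library, 42 genes were called.

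**Figure D3:**
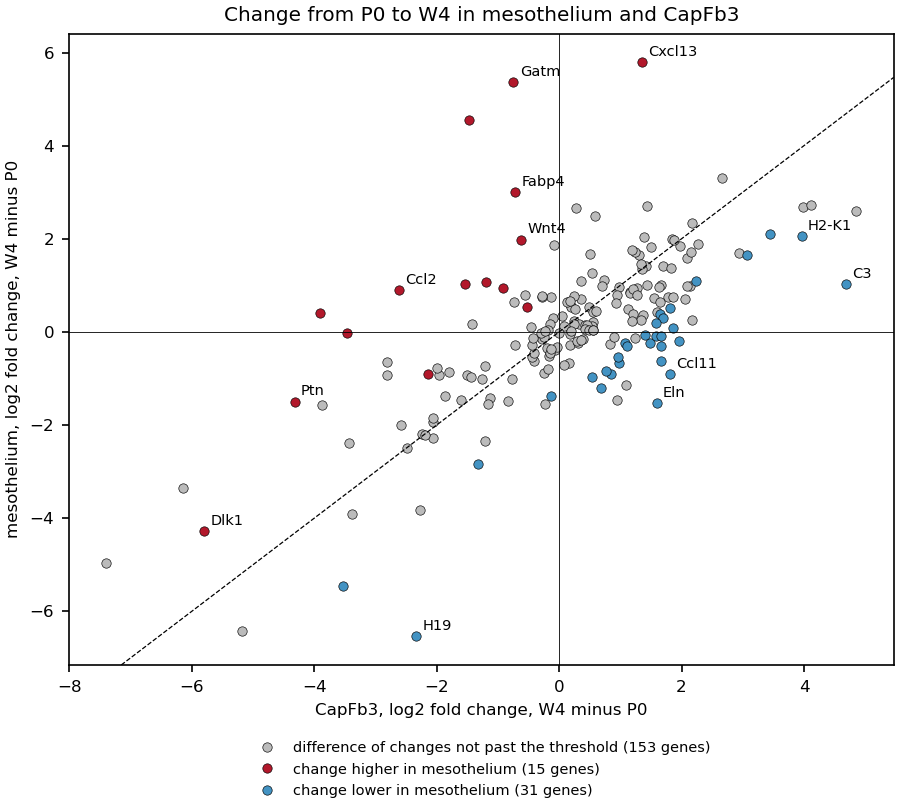
Log2 fold change from P0 to W4 in mesothelium (vertical axis) against the same change in CapFb3 (horizontal axis) for 199 genes, coloured by the test of the difference, with a dashed line where both changes are equal. Of these genes 15 change more positively in mesothelium, 31 more negatively, and 153 do not pass.

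From early to late stages the changes differed for 901 of 12595 genes (7.15%), with 3.40% more positive and 3.76% more negative in mesothelium. Nkain4, the one surface gene among them, rose in mesothelium and fell in CapFb3 from 154.95 and 66.96 CPM to 17.5 to 44.4 CPM (log2 difference 4.37 ± 0.32, adjusted p = 2.13e-40). Igfbp5, a binding protein of insulin-like growth factors, rose in mesothelium from 1561 and 1344 to 3769 to 8906 CPM and fell in CapFb3 from 1481 and 1315 to 142.99 to 538 CPM (3.99 ± 0.29, adjusted p = 2.1e-40). Tm4sf1, a tetraspan membrane protein, was at 0, 10.2, 280.3, 479, 379, 625 and 487 CPM in mesothelium (9.16 ± 0.69, adjusted p = 1.82e-37). With 0 CPM at E12.5, the counts do not fix the size of that difference. Of 15 fetal growth genes, 8 changed more negatively in mesothelium and none more positively. H19 stood at 498 and 234 CPM in CapFb3 at W4 against 2.19 and 4.19 CPM in mesothelium (log2 difference -5.64 ± 0.33, adjusted p = 1.92e-60).

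Fibroblast genes went apart over the same span. Of 16, 9 changed more negatively in mesothelium and none more positively, against 3.76% and 3.40% of all genes. Of 25 matrix genes, 13 changed more negatively and 3 the other way. Lum, the proteoglycan lumican, was at 32.4, 111.7, 93.4, 104, 12.6, 19.7 and 39.6 CPM in mesothelium and 7.29, 403, 1483, 1471, 1828, 1481 and 1296 CPM in CapFb3 (log2 difference -5.10 ± 0.52, adjusted p = 2.14e-20). Mmp2, gelatinase A, was at 103.1, 139.7, 46.7, 58.9, 0, 2.19 and 35.4 CPM in mesothelium and rose in CapFb3 from 86.6 and 139.4 to 494 to 1139 CPM (-4.75 ± 0.35, adjusted p = 7.27e-38). Efemp1, which encodes a fibulin, went the other way, rising in mesothelium from 135.5 and 102 to 227 to 594 CPM and standing in CapFb3 at 396 and 368 and then 34.9 to 181 CPM (3.50 ± 0.30, adjusted p = 7.77e-28). Of 12 immediate-early genes, 6 rose by more in mesothelium, and their part in the other differences was not tested. Without W4 replicate 2, 489 genes were called, without W4 replicate 1, 558, and without E13.5, 593.

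The share of mesothelium among NETS cells varied too much between replicates to be ordered by age. It was 1.002% at E12.5, 0.534% at E13.5, 0.0347% and 0.0759% at E16.5, 4.86% and 0.123% at P0 and 1.25% and 4.80% at W4. Each pair of replicates at P0 and W4 differed by more than their exact counting intervals. The test over ages gave an adjusted p of 0.162 (edgeR), while 17 of 19 subtypes (89.5%) were called. With DESeq2 the adjusted p was 0.0119. Without P0 replicate 2 the adjusted p was 0.00681 and without P0 replicate 1 it was 0.00796.

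Newborn stroma of Tbx1+/- Crkl+/- and wild-type pups held 21 mesothelial cells. These were 1, 5 and 0 in the heterozygous libraries and 8, 7 and 0 in the wild-type libraries, or 0.118%, 0.198% and 0% against 0.479%, 0.418% and 0% of NETS cells. A count of 0 allowed shares of up to 0.157% and 0.0935% in those libraries, counting error only. The difference in share did not pass (adjusted p = 0.583, edgeR, 0 of 19 subtypes called, 0%, with 0 at an unadjusted p under 0.05 and 0 called by DESeq2), and gene levels could not be tested with so few cells. These cells also owe their name to an annotation made from their expression, so the levels are a description. In the 3 libraries with 5 or more cells, 29 of the 50 leading genes were higher in mesothelium than in all other cells in every library. Of the 50, 2 had no mesothelial UMI. The share over all genes was not counted, so this number has nothing to be set against. Msln was at 413 CPM in the heterozygous library and at 647 and 1043 CPM in the wild-type libraries, against 15.9 to 22.6 CPM in other cells. Krt19 was at 495, 728 and 1369.6 CPM (other cells 2.49 to 5.97 CPM), and Upk3b at 0, 728 and 619.6 CPM, where the 0 came from 12119 UMIs in all.

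The bulk populations placed the mesothelial transcripts in the gp38+CD26+ gate at 4 weeks. One gp38+CD26+ library at 4 weeks held 25702 gene counts, against 8454267 to 15560221 in the others, and was left out. In bulk samples fewer cells of a type and less RNA per cell cannot be told apart. The lowest, median and highest Upk3b levels were 341, 3093 and 4222 CPM in gp38+CD26+ and 0, 0.225 and 37.6 CPM in gp38+CD26- at 4 weeks, and these ranges did not overlap (log2 difference 7.92 ± 1.58, adjusted p = 0.00418). For Msln they were 55.5, 541 and 718 CPM and 0, 0 and 2.44 CPM (9.91 ± 1.06, adjusted p = 4.5e-05). For Upk1b they were 228, 710.3 and 945 CPM and 0, 0 and 2.85 CPM (9.77 ± 0.99, adjusted p = 3.14e-05). Krt19 (5.87 ± 1.30, adjusted p = 0.00818) and Lrrn4 (6.62 ± 1.33, adjusted p = 0.00438) differed in the same direction. Over all genes 14.0% were called, 7.13% higher and 6.91% lower in gp38+CD26+. Of the 50 leading mesothelial genes 40 passed the filter on low counts, and genes such as Msln could pass only through the gate where they were high. In a fit without that filter, 32 of the 48 leading genes with a read were higher and none was lower, against 4.65% of all genes higher.

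At P0 these genes showed no call between the same gates. Upk3b was at 0, 49.2 and 269.8 CPM in gp38+CD26+ and at 0, 30.4 and 208 CPM in gp38+CD26- (log2 difference 0.64 ± 1.52, adjusted p = 0.918), and the ranges overlapped almost whole. Upk1b was at 0, 11.8 and 144.1 and 0, 1.95 and 50.8 CPM (1.86 ± 1.70, adjusted p = 0.705). Msln was at 0, 0 and 36.6 and 0, 0 and 14.7 CPM and was too low to be tested. In single libraries the transcripts were present, as replicate 6 of gp38+CD26+ held 269.8 CPM of Upk3b and 144.1 CPM of Upk1b, and replicate 5 of gp38+CD26- held 208 and 50.8 CPM. The gate itself separated at P0, with Dpp4 at 129, 247 and 464 CPM against 0, 7.44 and 25.9 CPM at P0 (5.10 ± 0.82, adjusted p = 0.00265). Over all genes 3.35% were called, 1.80% higher and 1.55% lower. Of 19 leading genes tested 1 was called, Aldh1a2, which was lower in gp38+CD26+ (-2.94 ± 0.76, adjusted p = 0.0487). Aldh1a2 was next highest in MedFb1b, at 118 CPM, and was found in 28.2% of those cells. The study placed medullary fibroblasts mainly in the gp38+CD26- gate, so this value need not come from mesothelium.

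At P0 the ranges of Wt1 and of Bmp7 did not overlap between the gates, and of the pair Bmp7 passed the test. Wt1 was at 24.1, 42.6 and 50.7 CPM in gp38+CD26+ and 0, 4.70 and 13.6 CPM in gp38+CD26-, ranges that did not overlap, although the test gave 3.07 ± 0.96, adjusted p = 0.108. Bmp7 was at 8.37, 26.3 and 59.9 and 0.0727, 3.77 and 5.22 CPM (3.44 ± 0.85, adjusted p = 0.0393) and at 50.4, 93.7 and 112.3 and 0, 0 and 1.13 CPM at 4 weeks (8.16 ± 0.84, adjusted p = 3.56e-05). Both are also made by capsular fibroblasts, at 39.2 to 213 CPM of Wt1 and 0.597 to 26.4 CPM of Bmp7 in CapFb3. Without the filter on low counts the P0 values of Bmp7 and Aldh1a2 no longer passed (adjusted p = 0.0543 and 0.0658, edgeR). Both calls were also lost with a block on the title numbers, which run in the same steps in both gates. At 4 weeks Aldh1a2 was at 6.86, 65.3 and 69.6 CPM in gp38+CD26+ and 2.002, 6.26 and 14.9 CPM in gp38+CD26- (2.75 ± 0.61, adjusted p = 0.00848). Whether the effect of the gate differed between ages was not tested.

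Within the gp38+CD26+ population, mesothelial genes were higher at 4 weeks than at P0. Over all genes 13.2% were called, 7.27% higher and 5.93% lower. Of the 50 leading genes 39 passed the filter on low counts, and without that filter 27 of the 47 with a read rose and none fell, against 4.60% of all genes that rose. Upk3b rose (log2 fold change 5.12 ± 1.39, adjusted p = 0.0292), as did Krt19 (5.56 ± 1.16, adjusted p = 0.00695), Msln (5.50 ± 1.49, adjusted p = 0.0289) and Gpm6a (5.96 ± 1.21, adjusted p = 0.00589). The calls of Upk3b and Msln were each lost without replicate 4 or replicate 6 at 4 weeks, and that of Upk3b also without replicate 2 or replicate 5 at P0. Cxcl13 went against the single-cell mesothelium, at 476, 648 and 1307 CPM at P0 and 29.1, 42.5 and 138 CPM at 4 weeks (-3.50 ± 0.45, adjusted p = 0.000259), in a gate that also takes in capsular fibroblasts. C3 rose (4.54 ± 0.33, adjusted p = 2.85e-06).

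**Figure D4:**
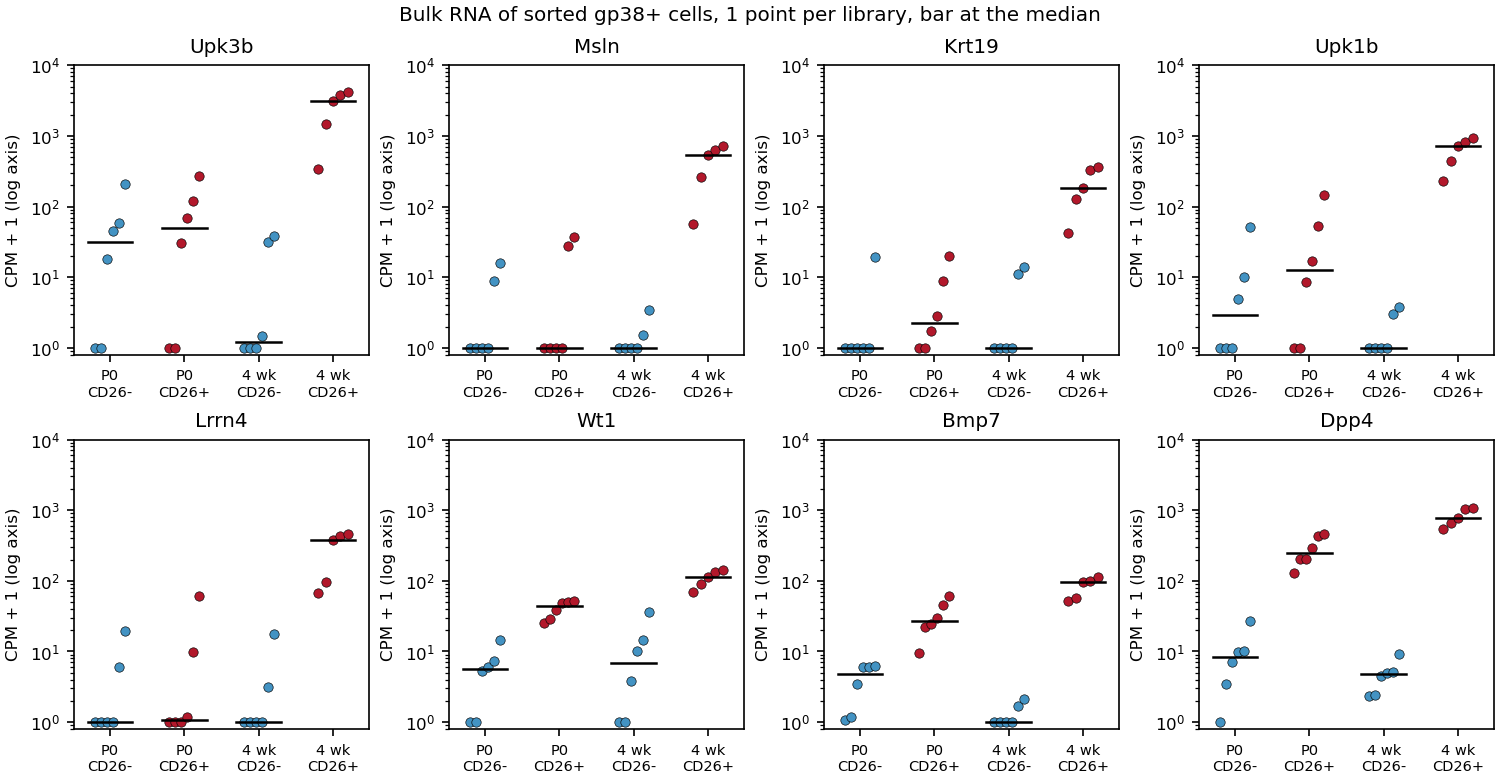
CPM plus 1 (log axis) of 8 genes in the 4 bulk groups, with 1 point per library and a bar at the median. The 5 gp38+CD26+ libraries at 4 weeks lie above all others for Upk3b, Msln, Upk1b and Lrrn4, while the 2 populations at P0 overlap for these genes and separate for Dpp4.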

How the data were processed

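Per the submitters' processing notes, the authors aligned and counted the single-cell reads with Cell Ranger 3.1.0 and the bulk reads with STAR 2.5.3a and HTSeq; the notes name the builds mm10 and GRCh38. The authors deposited raw UMI counts per gene and cell (22231 genes in the age series, 20760 in the newborn set) with their annotation, after removing cells with few genes, a high mitochondrial share, doublet calls or haematopoietic signatures. The deposited bulk values are raw read counts per gene. Bulk rows that name no gene held 7.81% to 16.6% of counts in the libraries used and were left out. Members were the cells annotated Mes, a name the authors gave after clustering integrated data, and no further doublet removal was done.

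UMIs were summed per subtype and library with at least 5 cells. Sums and bulk counts were tested with edgeR 4.0.16 (quasi-likelihood, filterByExpr, TMM, Benjamini-Hochberg adjusted p of 0.05) in R 4.3.3, with no replicate block, and DESeq2 1.42.0 was an alternative. All ages entered 1 fit, in which the single libraries at E12.5, E13.5 and E16.5 were taken to vary like the replicated ages. The change in mesothelium was set against that in CapFb3 with library as a block. In the fits of mesothelium, of CapFb3 and of their difference, the single libraries at E12.5, E13.5 and E16.5 gave no spread of their own. The p-values of these fits rest on the P0 and W4 libraries and on a spread shared over genes, so very small ones should not be taken at face value. Genes were named from the lists and from the order of leading genes (at least 50 CPM on average). They were also named from the 10 largest changes in each direction that passed without overlap or, for differences in change, the 10 smallest p. Of the heart-muscle genes, Tnnt2, Tnni1 and Myl7 met this rule, and the others were looked up outside it. The members and lists were chosen with earlier results of these data known. Bulk libraries needed 1000000 gene counts. Their titles carry a prefix, TXCK or DFCK, whose meaning is not given, and both occur in every bulk group. A fit with the prefix as a term kept each bulk count of called genes within 1.5 times. Same-numbered libraries of different ages did not deviate together (r = -0.02 in mesothelium and 0.05 in CapFb3, over 3216 genes), so numbers did not pair them. In simulated counts with 200 genes changed 4-fold, 74.5% were recovered for W4 against P0 over 7067 genes and 73% for late against early stages over 7055 genes. P-values measure the spread between these libraries, which may be technical. Alternatives were the size factors, the filter, the number of cells, the block and leaving out each library. Figures were drawn with matplotlib 3.10.9 in Python 3.11.15.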

Additional observations from a re-analysis of the deposited data

Results flagged for a closer look

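Bulk levels of 14 genes were examined in the 4 populations for a library far from the rest of its group. The cut-off would flag about 1 in 20 groups of normally distributed values. That rate does not hold for CPM, which are skewed, or for genes that share libraries. Here 13 of 56 groups had a highest library set apart. In gp38+CD26- at P0 these were Upk3b at 208 CPM, Upk1b at 50.8 CPM, Lrrn4 at 18.5 CPM, Krt19 at 18.6 CPM, Dpp4 at 25.9 CPM, C3 at 327 CPM and Cxcl13 at 353 CPM. Replicate 5 was the highest for Upk3b, Upk1b, Lrrn4 and Krt19, and replicate 6 for C3 and Cxcl13. In gp38+CD26+ at P0, replicate 6 stood apart for Upk1b at 144.1 CPM, Lrrn4 at 60.7 CPM and Gpm6a at 18.2 CPM. At 4 weeks the libraries set apart were those with Cxcl13 at 138 CPM in gp38+CD26+ and with Lrrn4 at 16.4 CPM and Msln at 2.44 CPM in gp38+CD26-.

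Changes that differed between mesothelium and CapFb3 by the edgeR test of the difference numbered 267 genes from P0 to W4. Those with the smallest p and a more positive change in mesothelium were Gatm (log2 difference 5.29), 1500015O10Rik (4.72), Cxcl13 (3.85), Ptn (3.11), Wnt4 (3.05), Ccl2 (3.02) and Fabp4 (3.01), and those with a more negative one were C3 (-3.79), Ccl11 (-3.39, and 6.85 without P0 replicate 1) and Eln (-3.38). From early to late stages they numbered 901 genes. Tm4sf1 (9.16), Igfbp2 (8.92), Nkain4 (4.37) and Igfbp5 (3.99) were more positive in mesothelium, and H19 (-5.64), Nrk (-5.22), Itm2a (-4.75), Mmp2 (-4.75), Mfap4 (-4.41) and Peg3 (-4.09) were more negative.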

How the results depend on the processing

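Of the alternative values for 14 results, 123 kept their direction and side of the threshold, or a count within 1.5 times; for the other 47 the cause was not tested beyond the fewer cells or libraries that some hold. With DESeq2, genes called numbered 106 in place of 523 for mesothelium from P0 to W4, 93 (211) from E16.5 to W4, 793 (2581) from early to late stages and 570 (2059) over any age, 458 (1493) and 1838 (4484) for CapFb3 from P0 to W4 and from early to late, 99 (267) and 546 (901) for the differences in change over these intervals, and 905 (401) for the bulk gates at P0. With an equal number of cells per library they were 116 from P0 to W4, 596 from early to late and 533 over any age in mesothelium, 804 in CapFb3 from P0 to W4, and 42 and 102 for the differences in change. Without a filter on low counts, 84 genes in place of 31 were called from E16.5 to P0 and 3037 in CapFb3 from P0 to W4. Without a library block the differences in change called 57 and 495, and against all other capsular fibroblasts 697 and 1476. With all bulk libraries kept, 1097 (1767) genes were called between the gates at 4 weeks and 864 (1641) between the ages. The bulk calls of Aldh1a2 and Bmp7 at P0 were lost without a filter on low counts.

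With the replicate number as a block, 75 genes were called from E16.5 to P0 and 120 for the difference in change from P0 to W4, and no other count moved by over 1.5 times under the pairing. The title numbers of the bulk libraries run in the same steps in both gates, and a block on them, added after the data had been seen, called 327 genes at P0 and 1276 at 4 weeks. The calls of Bmp7 and Aldh1a2 at P0 were lost under it. Libraries at the same place in the numbers hardly deviated together (r = 0.020 to 0.071), and 4 of 6 at P0 and 4 of 5 at 4 weeks correlated best with their own number.

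Leaving out each library in turn gave 171 to 718 genes for mesothelium from P0 to W4 (171 without P0 replicate 1), 20 to 86 from E16.5 to P0 (20 without E12.5, 57 without P0 replicate 1, 72 and 86 without W4 replicates 1 and 2), 190 to 416 from E16.5 to W4 (416 without P0 replicate 1), 1649 to 2775 from early to late (1649 without E12.5) and 1569 to 2741 over any age. In CapFb3 it gave 0 to 1868 from P0 to W4, with 0 by edgeR without either W4 library (2422 and 2371 genes at an unadjusted p under 0.05), and 2273 to 4920 from early to late (2804 without E12.5, 2914 without E13.5, 2513 and 2273 without W4 replicates 1 and 2). The differences in change gave 89 to 363 and 489 to 1064, and the bulk comparisons, which were left out in turn after the data had been seen, 1480 to 1921 at 4 weeks and 1241 to 1946 between the ages. The adjusted p of the share over ages was 0.0119 with DESeq2 and 0.00681 to 0.526 without single libraries, and that of the newborn share 0.346 to 0.878.

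The count over single genes leaves out those that DESeq2 gave no adjusted p and those that an alternative did not test. From P0 to W4 in mesothelium, 80 genes of the lists, the first 20 leading genes and the largest changes were called. DESeq2 kept 24 of these calls, lost 11 and gave 45 genes no adjusted p. Of 2411 values for single genes that could be counted, 2190 kept their call, 203 lost it, 10 gained it and 8 turned in direction. For the difference in change from P0 to W4, without P0 replicate 1, these log2 values were 6.85 for Ccl11 (-3.90 without P0 replicate 2), 7.12 for F3 (-2.26) and 0.52 for Col4a1 (-2.20), and with equal cells 1.30 for F3, 0.87 for Col4a1 and 0.27 for Cd74. With equal cells Irf1 was at 0.29 from P0 to W4 and Aldh1a2 at 0.043 from early to late stages. Contrasts with E16.5 could not be computed with at least 20 cells per library, and gene levels in newborn mesothelium could not be compared between genotypes. The 5 cells at E16.5 and 7 in P0 replicate 2 limit what could be detected at those ages.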
